A study of Mus musculus with 24 samples.

Results

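Acute-phase proteins are plasma proteins, made mainly by hepatocytes, whose levels change during inflammation, infection or injury. The transcripts described here encode 10 of them: the α1-acid glycoproteins Orm1, Orm2 and Orm3, the serum amyloid A proteins Saa1, Saa2 and Saa3, haptoglobin (Hp), lipocalin 2 (Lcn2) and the pentraxins Crp and Apcs. They were taken by symbol from 21364 genes named on the array, and each was measured by 1 probe with 1 spot per array. The group was chosen with earlier results from these arrays known, and the difference between genotypes in liver led to the choice, Orm3 first. Liver differences between genotypes are therefore described below without a test, while the other tissues and the comparison between tissues are tested.

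RNA came from 6 female mice, each of which gave its liver, brain, heart and skeletal muscle. In 3 mice, labelled RAP1 MUT and called KI here (mice A, B and C), a knockin point mutation made with CRISPR/Cas9 replaces an isoleucine of RAP1 by arginine, and 3 mice were wild type (WT, mice D, E and F). RAP1, encoded by Terf2ip, is a subunit of the telomeric complex shelterin, and the mutant protein lacks its contact with TRF2, which holds RAP1 at telomeres. The mutation is in the germ line, so every cell of a KI mouse carries it, the line was back-crossed to the inbred strain given as C57BL6 in the labels and as C57BL/6N in the study's methods, and the labels do not state zygosity. The age was 14 months in mice C and F and 15 months in the others. The study asked how RAP1 that is absent from telomeres affects transcription in tissues.

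In the classical account of the acute-phase response, interleukin 6 acts on hepatocytes through STAT3, and interleukin 1 and tumour necrosis factor act through NF-κB and C/EBP transcription factors. Genes that rise in this response are called positive acute-phase genes, and genes such as albumin and transthyretin that fall are called negative ones. In mice, serum amyloid A proteins and the pentraxin serum amyloid P, encoded by Apcs, are strong responders, whereas C-reactive protein, encoded by Crp, is a minor one.

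Orm3 lies between Orm1 and Orm2 on chromosome 4, Saa1, Saa2 and Saa3 lie in a cluster on chromosome 7, and Crp and Apcs lie on chromosome 1. RefSeq start regions (build GRCm38.p6) were at hand for 8 of the 10 genes, without Orm1 and Hp. The 250 bases before the start site are shown for Orm3, for its neighbour Orm2, which has the most similar start region of those compared with it, and for Crp, because in liver the KI and WT values of Orm3 and Crp did not overlap while those of Orm2 did. They lie at chr4:63355908-63356157, chr4:63362199-63362448 and chr1:172697806-172698055, all on the plus strand. The start sites used for Orm3, Saa1 and Saa3 lie inside the span that RefSeq gives the gene, which for Orm3 begins at 63356069. Part of the Orm3 window therefore lies within the annotated gene. Capitals mark the C/EBP-type motif TTGCNNAA.
Orm3: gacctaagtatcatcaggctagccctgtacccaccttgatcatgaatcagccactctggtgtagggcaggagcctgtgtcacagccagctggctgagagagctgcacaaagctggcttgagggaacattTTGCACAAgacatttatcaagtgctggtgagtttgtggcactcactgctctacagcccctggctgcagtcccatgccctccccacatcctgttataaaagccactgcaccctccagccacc
Orm2: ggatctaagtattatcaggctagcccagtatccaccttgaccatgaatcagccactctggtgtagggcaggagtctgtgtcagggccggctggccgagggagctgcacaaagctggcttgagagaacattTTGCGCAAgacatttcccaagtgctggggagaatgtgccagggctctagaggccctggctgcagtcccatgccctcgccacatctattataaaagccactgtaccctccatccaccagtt
Crp: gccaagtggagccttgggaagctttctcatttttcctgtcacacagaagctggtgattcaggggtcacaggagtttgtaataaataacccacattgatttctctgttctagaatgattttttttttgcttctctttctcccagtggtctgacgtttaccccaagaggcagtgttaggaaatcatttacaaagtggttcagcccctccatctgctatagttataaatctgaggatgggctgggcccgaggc
Over these windows Orm2 and Orm3 were identical at 85.9% of aligned positions, Saa1 and Saa2 at 94.8%, and Orm3 and Crp at 50.3%. The C/EBP-type motif, searched on both strands, was found in 6 of the 8 windows, those of Orm2, Orm3, Saa1, Saa2, Saa3 and Lcn2, and in 9.57% of all 32536 windows. Windows as alike as those of Orm2 and Orm3, or of Saa1 and Saa2, are not independent, so the count is a description. In Orm3 it reads TTGCACAA and starts 121 bases before the start site, and in Orm2 it reads TTGCGCAA and starts 120 bases before it. The Crp window holds no match of these letters. A STAT-type motif, TTCNNNGAA, was found only in the window of Apcs among the 8, and in 7.04% of all windows. The NF-κB consensus was in 0 of the 8 and in 7.28% of all windows. These are matches of letters, and binding was not measured.

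Levels are log2 processed signal minus the 75th percentile of the array, so 0 is the signal at that percentile and 1 unit is a doubling. Levels compare the same probe between arrays and not one gene with another. A signal is called well above background where the scanner software marked it so. Terf2ip itself was well above background on every array, and its KI minus WT difference was between -0.33 and -0.07 in the 4 tissues, with a smallest limma adjusted p of 0.516. All 10 hepatocyte markers were well above background on all 6 livers, as were all 7 brain markers on the brains, all 6 heart muscle markers on the hearts and all 6 skeletal muscle markers on the muscles. A few arrays stood out in markers of another tissue or cell type, and these are given beside the results below. Their part in the results was not tested. The brain of KI mouse C was above the other 5 brains in all 10 hepatocyte markers, and the liver of KI mouse C was above the other 5 livers in all 6 skeletal muscle markers. The muscle of KI mouse B was above the other 5 muscles in 8 of 10 mammary epithelium markers. The muscles of KI mouse B and WT mouse D were both above the other 4 in all 10 neutrophil markers.

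In liver, Orm3 was lower in every KI mouse than in any WT mouse, while its neighbours Orm1 and Orm2 were at similar levels in both genotypes. α1-Acid glycoproteins bind drugs and other small lipophilic molecules in plasma. Orm3 levels were 1.59, 1.80 and 1.80 in KI mice A, B and C, and 2.91, 2.79 and 2.90 in WT mice D, E and F. The means were 1.73 ± 0.12 and 2.87 ± 0.06 (SD, n = 3 each), a difference of -1.13, which puts the KI level at 0.456 of the WT level. The lowest WT mouse lay well above the highest KI mouse, and both genotypes were tight. The difference was -1.15 among the 15-month-old mice and -1.09 between the pair of 14-month-old mice, and it lay between -1.17 and -1.06 when any 1 liver was left out.

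Orm1 levels in liver were 6.41, 6.50 and 6.30 in KI against 6.39, 6.76 and 6.38 in WT mice, listed as for Orm3. Orm2 levels were 6.41, 6.57 and 6.33 in KI against 6.41, 6.91 and 6.44 in WT mice. Both genes ranked the mice alike at the ends, with WT mouse E highest and KI mouse C lowest, and their genotypes overlapped. The differences were -0.11 for Orm1 and -0.15 for Orm2. The sequence of the probes was not at hand, so whether the probes of these related genes share signal was not tested, and the same holds for Saa1 and Saa2.

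Crp, the other gene without overlap, encodes C-reactive protein, a pentraxin that binds phosphocholine on microbes and damaged cells. Its liver levels were 4.68, 5.26 and 4.30 in KI against 6.0, 5.55 and 5.76 in WT mice. The means were 4.74 ± 0.48 and 5.77 ± 0.22 (SD, n = 3 each), a difference of -1.03, or 0.49 of the WT level. The gap between KI mouse B and WT mouse E was small beside the spread within KI mice, and the difference was -0.81 without KI mouse C and -1.29 without KI mouse B. Apcs, which encodes the related pentraxin serum amyloid P, overlapped between genotypes, with 3.46, 3.40 and 2.82 in KI against 3.36, 3.18 and 2.93 in WT mice.

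Serum amyloid A proteins are apolipoproteins of high-density lipoprotein in the acute phase, Saa1 and Saa2 being made mainly by liver and Saa3 also by macrophages and fat. Saa1 levels in liver were 4.11, 5.21 and 4.95 in KI against 4.99, 5.19 and 4.63 in WT mice. Saa2 levels were 3.90, 4.74 and 4.53 in KI against 3.99, 4.86 and 3.81 in WT mice. Saa3 levels were 0.36, 0.97 and 0.87 in KI against 1.12, 1.54 and 0.17 in WT mice. The 3 genes ordered the mice identically within each genotype, KI mouse B above C above A and WT mouse E above D above F. Differences between mice of 1 genotype were larger than the differences between genotypes, which were -0.18 for Saa1, 0.17 for Saa2 and -0.21 for Saa3.

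Hp encodes haptoglobin, which binds free haemoglobin. Its liver levels were 8.81, 9.01 and 9.04 in KI against 8.19, 9.07 and 8.59 in WT mice, with a difference of 0.33 and overlapping groups. This difference was 0.13 after quantile normalization, 0.14 with normexp background correction as well, 0.12 without WT mouse D and 0.56 without WT mouse E. Lcn2 encodes lipocalin 2, which withholds iron from bacteria by binding their siderophores. Its liver levels were 1.76, 4.16 and 2.88 in KI against 2.48, 3.14 and 3.92 in WT mice. Lcn2 varied more between livers than any other of the 10 genes, with an SD of 1.2 in KI against 0.72 in WT mice. Its difference of -0.25 became 0.34 without KI mouse A and 0.12 without WT mouse F. Leaving out a single liver also turned the sign for Orm1, Orm2 and Saa3 (mouse E), Saa1 (mouse A), Saa2 (mouse B or F) and Apcs (mouse A, B or F). No single liver turned it for Orm3, Crp or Hp.

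**Figure D1:**
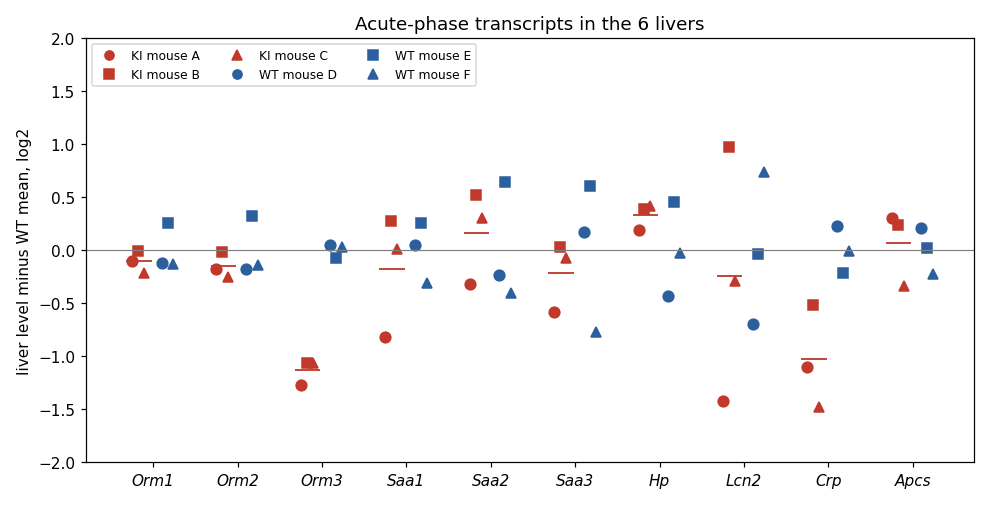
Liver level of each acute-phase transcript in each mouse minus the mean of the 3 WT mice (log2, vertical axis); symbols are mice, red KI and blue WT, and the red line is the KI mean. For Orm3 and Crp every KI mouse lies below every WT mouse, by 1.13 and 1.03 on average, and for the other 8 genes the genotypes overlap.

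Thus 2 of the 10 genes did not overlap between genotypes in liver, both lower in KI. Over all genes measured, 7.51% had all 3 KI livers below all 3 WT livers, and 19.7% did not overlap in either direction. Since this contrast led to the choice of the genes, nothing is read from that count. KI mouse B was the highest KI liver for 8 of the 10 genes, all but Hp and Apcs, whereas it was the highest KI liver for 25.8% of all genes well above background on the 6 livers. WT mouse E was the highest WT liver for 6 of the 10, namely Orm1, Orm2, the 3 Saa genes and Hp, against 39.3% of all genes. For Orm3 and Crp, WT mouse E was the lowest WT liver. Genes that share a mouse are not independent measurements, so these counts describe single animals.

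The means of the macrophage and neutrophil marker lists in liver did not overlap between genotypes. The mean level of 10 macrophage and Kupffer cell markers was 2.79 to 3.06 in KI against 2.12 to 2.43 in WT livers, with 8 of the 10 above all WT livers in every KI liver. The mean level of 10 neutrophil markers was -1.82 to -1.55 in KI against -2.53 to -1.98 in WT livers, with 4 of the 10 above all WT livers. The neutrophil marker Elane went the other way, at 2.54 to 2.89 in KI against 2.90 to 3.24 in WT livers, and the rest overlapped. Beside these counts, 19.7% of all genes did not overlap in either direction, and 7.51% had every KI liver below every WT liver. Every macrophage marker and 6 of the neutrophil markers were well above background on all 6 livers. The mean of the hepatocyte markers was 7.81 to 7.91 in KI against 7.57 to 8.27 in WT livers and overlapped. In bulk tissue, fewer cells of a type and less RNA per cell cannot be told apart. The part of these cells in the lower Orm3 and Crp was not tested. Without KI mouse C, whose liver held muscle transcripts, the Orm3 difference was -1.17.

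All 10 genes were highest in liver. In WT mice, each was higher in liver than in brain, heart and muscle with limma adjusted p-values of at most 0.000839 (12 WT arrays). Liver was higher than brain for 42.3% of all genes tested, higher than heart for 32% and higher than muscle for 33.1%. Of the 10 genes, 6 (Orm1, Orm2, Orm3, Saa3, Crp and Apcs) passed the filter on low signal through liver alone, so they had to differ, while Saa2 passed through brain too and Saa1, Hp and Lcn2 through every tissue. The count is given as a description. The sizes differ widely. Orm1 was at least 7200-fold and Crp at least 4320-fold higher in WT liver than in WT brain, where neither was well above background on any array. Orm3 was at least 577-fold higher than in brain and at least 134-fold higher than in muscle. These bounds set the dim tissue at the lowest signal marked well above background on each array. At the other end, Lcn2 was 44.6-fold higher in liver than in brain, 14.6-fold than in heart and 18.4-fold than in muscle. Its limma adjusted p-values were 4.93e-05, 0.000839 and 0.000437.

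Outside liver the genes fell into 3 kinds. The first kind was at or near background in most arrays: Orm3, Crp, Apcs and Saa3 were well above background on no muscle array, and Orm3 and Crp on no brain array other than that of KI mouse C. The second kind, Hp, Lcn2 and Saa1, was well above background on all 24 arrays. The third kind, Orm1, Orm2 and Saa2, was measured in some tissues only. Orm1 and Orm2 were well above background on 5 of 6 muscles and on no heart, and Saa2 on all 6 brains, 2 of 6 muscles and no heart.

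Hp separated all 4 tissues in WT mice. Its mean level was 8.62 ± 0.44 in liver, 2.12 ± 1.5 in muscle, -1.04 ± 0.79 in heart and -2.95 ± 1.12 in brain (SD, n = 3 each). Muscle was above heart by 3.16 (limma adjusted p = 0.00535) and above brain by 5.08 (limma adjusted p = 0.000114). Heart was above brain by 1.92 (limma adjusted p = 0.0404), a call that was lost in 10 of 15 alternative settings, among them those without the brain or the heart of WT mouse D or of WT mouse E (limma adjusted p from 0.00431 to 0.673 over the settings). Muscle above heart and muscle above brain were lost only in the KI mice when the brain of KI mouse C was kept.

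Orm1 was higher in WT muscle than in WT heart and brain, at -3.64 ± 1.59 against -7.21 ± 0.49 and -7.49 ± 0.36 (SD, n = 3 each), and only 2 of the 3 WT muscles were well above background. With the dim tissue set at its lowest signal marked well above background, Orm1 was 3.09-fold above heart (limma adjusted p = 0.000852) and 6.36-fold above brain (limma adjusted p = 0.000222). Orm2 was 3.17-fold above heart in muscle in the same way (limma adjusted p = 0.00815). For both genes the muscle mean includes a WT muscle not well above background, so these folds are not strict lower bounds. In KI mice the muscle excess over heart was 3.51 for Orm1 and 2.99 for Orm2, and it passed the threshold without the brain of KI mouse C (limma adjusted p = 0.000523 and 5.12e-06) but not with it (0.0839 and 0.152). All tissues of a genotype share 1 estimate of the spread in this fit.

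Saa1 and Saa2 differed outside liver, close as their start regions are. Saa1 lay between -1.61 and -0.62 in every heart, every muscle and 5 of 6 brains, and no pair of these tissues differed in WT mice, with limma adjusted p-values of 0.0818 to 0.680. Saa2 was at -4.61 ± 0.38 in WT brain, -4.51 ± 0.59 in WT muscle and -7.38 ± 0.47 in WT heart (SD, n = 3 each), where no array measured it well above background. It was at least 1.58-fold lower in heart than in brain (limma adjusted p = 5.99e-05). With heart set in the same way, it was 1.68-fold lower in heart than in muscle (limma adjusted p = 0.000125). This second figure is not a lower bound, since 1 of 3 WT muscles measured Saa2 well above background.

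**Figure D2:**
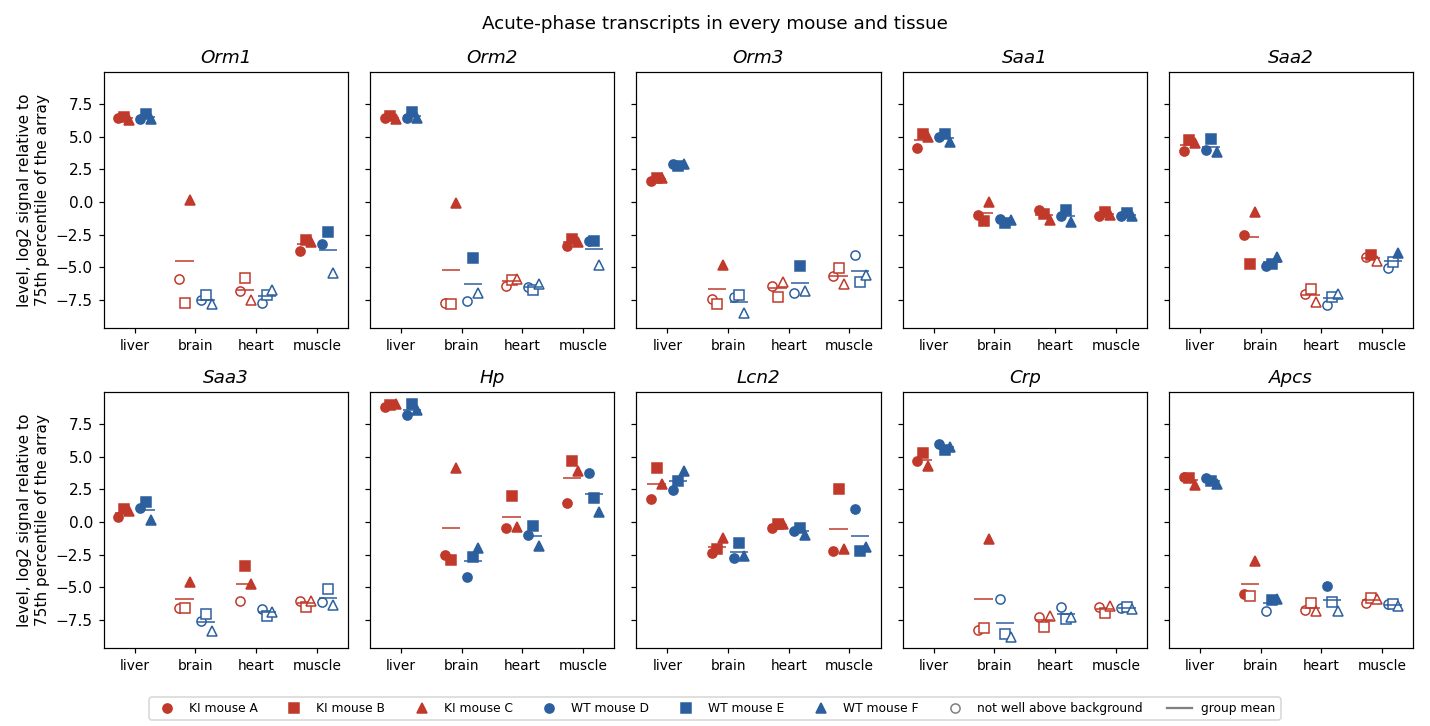
Level of each acute-phase transcript (log2 signal over the array's 75th percentile, vertical axis) in liver, brain, heart and muscle; symbols are mice, red KI and blue WT, open where the signal was not well above background, and short lines are group means. Every gene is highest in liver, and the red triangle of KI mouse C stands above the other brains.

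In brain, 4 of the 10 genes could be tested between KI and WT mice, namely Saa1, Saa2, Hp and Lcn2, and 0 passed the threshold of limma, nor did any have an unadjusted p under 0.05. Of all 16061 genes tested in brain, 0 (0%) passed, and 127 (0.791%) had an unadjusted p under 0.05. Hp levels were -2.49, -2.91 and 4.13 in KI mice A, B and C and -4.19, -2.68 and -1.99 in WT mice D, E and F. KI mouse C stood above every other brain, and the KI minus WT difference of 2.53 (SE 1.82, limma adjusted p = 1) was 0.25 without it. Saa2 levels were -2.49, -4.71 and -0.77 in KI against -4.90, -4.73 and -4.18 in WT mice. KI mice A and C were above all WT brains for Saa2, KI mouse B was not, and the difference of 1.95 (SE 0.90, limma adjusted p = 1) was 1.01 without mouse C. Within slide 1, with 1 mouse of each genotype, the Saa2 difference was 2.41, and within slide 2, with 2 mice of each, it was 1.72. Hp gave 1.70 and 2.95 in the same way. The differences of Saa1 and Lcn2 in brain were 0.63 (SE 0.36) and 0.43 (SE 0.40), with overlapping genotypes and limma adjusted p-values of 1, and without KI mouse C they were 0.22 and 0.10.

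The brain of KI mouse C was the highest of the 6 brains for all 10 genes. Orm1 was at 0.13 there and Crp at -1.26, and neither was well above background in any of the other 5 brains, where the signals lay at -7.83 to -5.93 and -8.76 to -5.85. Orm3 was at -4.81 there, well above background in that brain alone. Set against the liver of the same mouse, the brain levels of the 10 genes were 1.02% (Orm3) to 5.78% (Lcn2), with a median of 2.2%. In the other 5 brains Hp, well above background in each, was at 0.0188% to 0.0655% of the own liver. Albumin, the main hepatocyte transcript, was at 11.2% of the own liver in the brain of KI mouse C and at 0.0098% to 0.0897% in the 3 of the other 5 brains that measured it well above background. All 10 hepatocyte markers were highest in this brain, with a mean level of 3.13 against -3.84 to -1.94 in the other 5. Lcn2 and Saa1 stood out least, since the brain of KI mouse A had 5.8% and 2.97% of its own liver level. The part of liver RNA in the brain values was not tested.

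**Figure D3:**
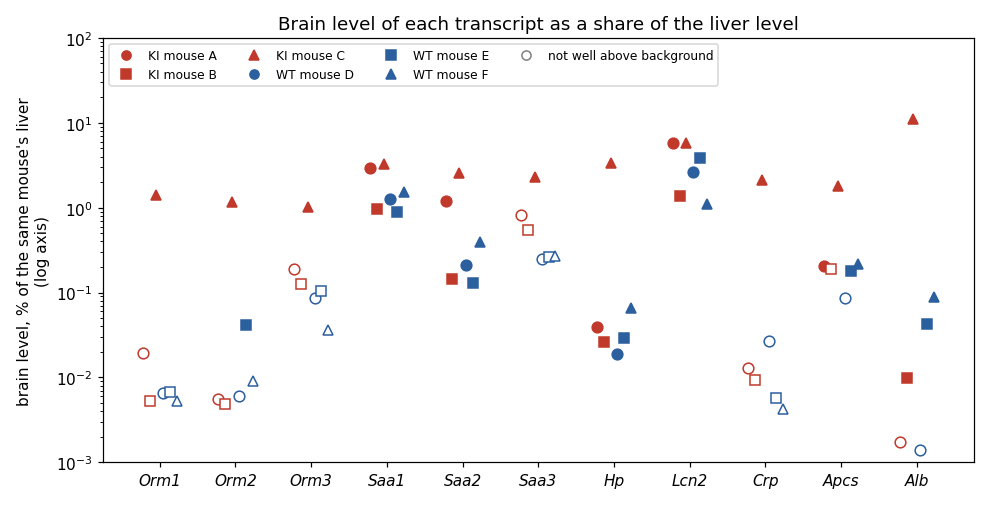
Brain level of each acute-phase transcript and of albumin (Alb) as a percentage of the liver level in the same mouse (vertical log axis), both scaled to the 75th percentile of their own array; symbols are mice, red KI and blue WT, open where the brain signal was not well above background. KI mouse C lies between 1.02% and 11.2% for every gene, while the signals of the other mice, many of them at background, are under 0.1% for Orm1, Orm2, Hp, Crp and Alb.

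In heart, Saa1, Hp and Lcn2 could be tested and 0 passed the threshold of limma, none with an unadjusted p under 0.05. Of all 14922 genes tested in heart, 0 (0%) passed, and 245 (1.64%) had an unadjusted p under 0.05. Lcn2 levels were -0.43, -0.16 and -0.17 in KI against -0.64, -0.41 and -1.0 in WT mice. KI mouse A overlapped with WT mouse E by a narrow margin, and the difference was 0.43 (SE 0.18, limma adjusted p = 0.971). Hp levels were -0.47, 2.01 and -0.33 in KI against -0.95, -0.29 and -1.86 in WT mice. KI mouse B stood apart, and the difference of 1.44 (SE 0.72, limma adjusted p = 0.971) was 0.63 without it. WT mouse E was second, and both hearts were also the highest in the atrial transcripts Myl7, a myosin light chain, and Nppa, the atrial natriuretic peptide. Myl7 was at 7.44 in KI mouse B, 4.27 in WT mouse E and -3.26 to 0.18 in the other 4 hearts, and Nppa was at 9.03, 7.69 and 4.49 to 5.31 in the same way. The part of atrial tissue in the Hp values was not tested. Within slide 2, with 2 mice of each genotype, the Hp difference was 1.39, and within slide 3, with the pair of 14-month-old mice, it was 1.53. The Lcn2 differences were 0.23 and 0.82. Saa1 differed by 0.13 (SE 0.28, limma adjusted p = 0.971).

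Saa3 did not pass the filter in heart and was not tested there. Its levels were -6.06, -3.39 and -4.73 in KI against -6.62, -7.21 and -6.87 in WT mice. KI mice B and C were the only ones well above background, and every KI heart lay above every WT heart, as 1.9% of all named genes did without a filter on low signal. In brain the untested Saa3 and Apcs were also above all WT mice in every KI mouse, against 1.2% of named genes, with KI mouse C the highest for both. Saa3 was well above background in that brain alone, and Apcs on 2 KI and 2 WT brains. Apcs did so in muscle as well, against 4.33% of named genes, but was well above background on no muscle. In the heart of KI mouse B, 8 of 10 macrophage markers, 7 of 10 adipocyte markers and 6 of 10 neutrophil markers were above the other 5 hearts. The adipocyte markers Fabp4 and Cidea went the other way and were lowest of all 6 hearts in KI mouse B. Lipe, also on the adipocyte list, was highest in WT mouse F. The list means over the KI hearts were -0.43 to 0.65 for macrophages, -0.57 to 1.30 for adipocytes and -3.76 to -2.45 for neutrophils, against -0.57 to -0.11, -0.92 to 0.05 and -3.87 to -3.04 in WT hearts. All 10 macrophage markers, 9 adipocyte markers and 5 neutrophil markers were well above background on all 6 hearts. Lep and Mmp8 were not on any. The part of these cells in the heart values was not tested.

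In muscle, Orm1, Orm2, Saa1, Hp and Lcn2 could be tested and 0 passed the threshold of limma, none with an unadjusted p under 0.05. Orm1 and Orm2 passed the filter on low signal through KI muscles alone, with 2 of 3 WT muscles well above background. The sign of their differences is therefore not read. Of all 13510 genes tested in muscle, 0 (0%) passed, and 115 (0.851%) had an unadjusted p under 0.05. Lcn2 levels were -2.19, 2.54 and -2.03 in KI against 1.03, -2.18 and -1.92 in WT mice. KI mouse B and WT mouse D were far above the other 4 mice, which lay close together, and the difference of 0.46 (SE 1.43, limma adjusted p = 1.00) moved to 1.49 without WT mouse D, to -1.09 without KI mouse B, to -0.12 without WT mouse E and to 0.01 without WT mouse F. The same muscles were the highest in the neutrophil markers, 4 of which were well above background on all 6 muscles. The mean of the 10 neutrophil markers was 1.25 in KI mouse B and 1.22 in WT mouse D and between -4.47 and -3.95 in the other 4, and S100a8, a calprotectin subunit abundant in neutrophils, was at 2.70 and 3.49 against -3.47 to -2.84. The mammary list had a mean of -1.97 in KI mouse B and of -5.42 to -4.96 in the other 5, among them WT mouse D at -5.34. Csn3 and Wap, which encode milk proteins, were well above background on no muscle. The part of these cells in the Lcn2 values was not tested.

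Hp levels in muscle were 1.48, 4.72 and 3.95 in KI against 3.73, 1.87 and 0.77 in WT mice. Levels spread widely in both genotypes and overlapped, with a difference of 1.26 (SE 1.01, limma adjusted p = 1.00). It was 0.58 without WT mouse F, 0.59 without KI mouse B, 2.06 without WT mouse D and 2.21 without KI mouse A. The mean of the adipocyte markers was 1.78, 3.47 and 3.34 in KI against 3.27, 2.63 and 1.59 in WT muscles, and all 10 markers were well above background on all 6. Hp and the mean of the adipocyte list ranked the 6 mice identically, B above C, D, E, A and F. They ranked the 6 hearts identically too, B above E, C, A, D and F. In muscle the list means of KI mice B and C lay close, and single markers did not share their order. Adipoq, Lep, Retn and Lipe were higher in C and the others in B, by far most Cidea (4.12 in B against 1.04 in C). The order of B and C in the list mean thus leans on Cidea. Of the genes well above background on all arrays of a tissue, 0.123% followed the order of the adipocyte list in muscle and 0.334% in heart. Only Hp and Slc1a5, of 12703 genes measured in both, did so in both tissues, Slc1a5 encoding a neutral amino acid transporter. This agreement of ranks was noticed, and Slc1a5 named, after the values were seen. In liver no acute-phase gene followed that order. The part of fat in the Hp values was not tested.

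**Figure D4:**
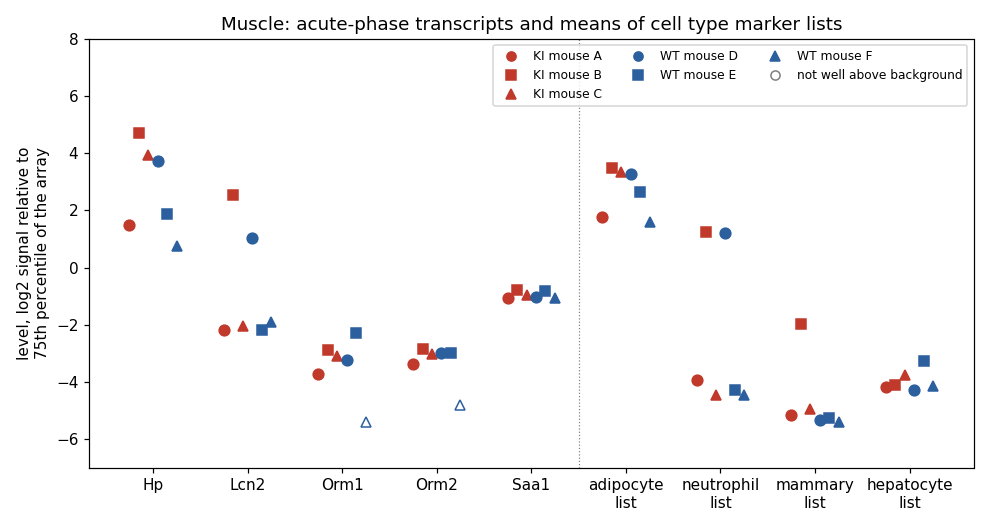
Muscle levels of 5 acute-phase transcripts (left of the dotted line) and the mean levels of cell type marker lists (right), as log2 signal over the array's 75th percentile; symbols are mice, red KI and blue WT, open where a transcript was not well above background. Lcn2 and the neutrophil list are high in KI mouse B and WT mouse D alone, and Hp ranks the mice as the mean of the adipocyte list does.

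Orm1 levels in muscle were -3.71, -2.88 and -3.08 in KI against -3.23, -2.29 and -5.39 in WT mice, and Orm2 levels were -3.39, -2.86 and -3.03 in KI against -3.00, -2.99 and -4.81 in WT mice. WT mouse F was lowest for both genes and not well above background for either, and the genotypes overlapped. The differences were 0.41 for Orm1 (SE 0.74) and 0.51 for Orm2 (SE 0.50), both with a limma adjusted p of 1.00, and without WT mouse F they were -0.47 and -0.10. Saa1 was nearly level over the 6 muscles, between -1.07 and -0.79, with a difference of 0.03 (SE 0.16). The hepatocyte list had a mean of -4.30 to -3.28 in muscle, highest in WT mouse E, the mouse with the highest Orm1. Orm2 was highest in KI mouse B, where the hepatocyte list had a mean of -4.12. The part of liver RNA in the muscle values was not tested. Albumin in muscle was well above background on 2 of 6 arrays, with levels of -6.50 to -1.86. Orm3 was well above background on no muscle.

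Genes that act around the acute-phase proteins were examined in 7 lists of 92 genes in all, none of them among the 10. In liver 82 of them could be tested and 0 passed the threshold of limma, as 0 (0%) of all 14081 genes did. An unadjusted p under 0.05 was found for 13 of the 82, with 4 higher and 9 lower in KI, and for 11.7% of all genes. In brain, heart and muscle 69, 68 and 54 of them could be tested, and 0 passed in each. An unadjusted p under 0.05 was found there for 2, 1 and 0 of them.

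Among the other positive acute-phase genes, 15 of 21 tested were higher and 6 lower in KI liver, with a median difference of 0.16 beside 0.04 for all genes. The largest differences were those of the metallothioneins Mt2 (1.71, limma adjusted p = 0.506) and Mt1 (1.00, limma adjusted p = 0.598), which bind zinc and copper. Mt2 levels were 8.09, 7.56 and 4.79 in KI against 4.89, 3.82 and 6.61 in WT mice, so the genotypes overlapped. Of the negative acute-phase genes, 9 of 10 were higher in KI, with a median of 0.32. The exception, Serpina6, which encodes the corticosteroid-binding globulin, was at 5.53, 5.63 and 5.69 in KI against 6.15, 5.96 and 6.37 in WT mice, a difference of -0.55 (limma adjusted p = 0.365). Trf, which encodes transferrin, had a difference of 0.39 (limma adjusted p = 0.548). Most of the negative acute-phase genes that were higher in KI overlapped between genotypes. Albumin was at 10.05, 9.74 and 9.69 in KI against 9.02, 10.21 and 9.30 in WT mice. WT mouse D was the lowest liver for both albumin and Trf. Genes that share a mouse are not independent, so the count is a description.

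On the signalling side, 11 genes of the interleukin 6 and STAT3 pathway had a median of 0.05, with Socs3, its feedback inhibitor, at -0.42 (limma adjusted p = 0.505) and Il6ra, the receptor, at -0.36 (limma adjusted p = 0.668). The 14 genes of the interleukin 1, tumour necrosis factor and NF-κB pathway had a median of -0.10. Nfkbiz, an NF-κB cofactor induced by interleukin 1, was at -2.30, -2.34 and -2.04 in KI against -1.46, -1.69 and -1.03 in WT mice (difference -0.83, limma adjusted p = 0.358). Il1r1, the interleukin 1 receptor, was at 0.72, 0.90 and 1.2 in KI against 1.70, 1.21 and 1.93 in WT mice (difference -0.67, limma adjusted p = 0.402). Neither overlapped between genotypes and neither passed the threshold. The median of 9 liver transcription factors was 0.13, with Foxa1 at -0.54 (limma adjusted p = 0.437).

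The 8 glucocorticoid response genes had a median of -0.10. Per1 was at -0.67 (limma adjusted p = 0.389) and Tat at -0.46 (limma adjusted p = 0.514). Of 9 receptors and uptake proteins, 8 were higher in KI, with a median of 0.21. Fcgr1, a receptor of immunoglobulin G that also binds pentraxins, was at 0.70 (limma adjusted p = 0.358), and Tlr4, the receptor of bacterial lipopolysaccharide, at 0.60 (limma adjusted p = 0.358). Fcgr1 and Tlr4 are expressed by macrophages, whose markers were also higher in KI livers as given above. A link between these values and those markers was not tested.

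**Figure D5:**
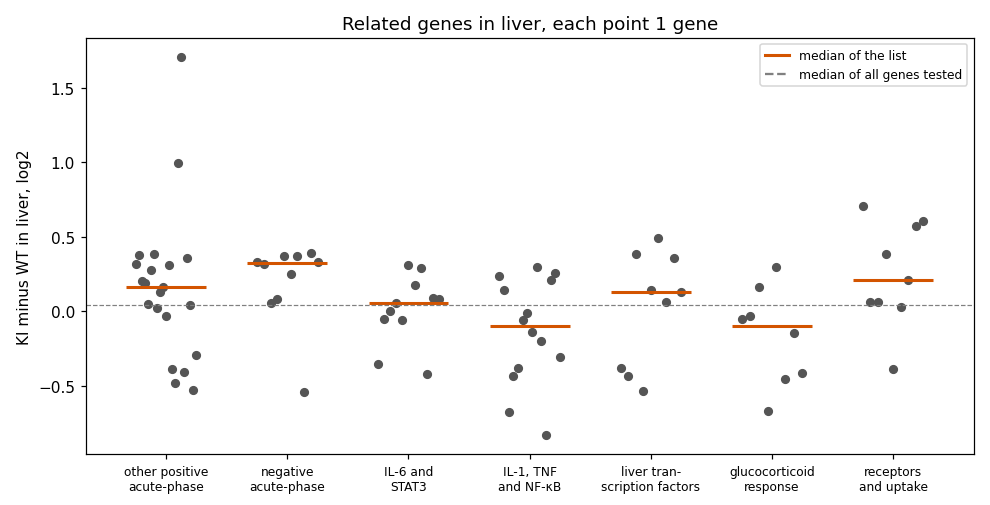
KI minus WT difference in liver (log2, vertical axis) of the tested genes in 7 lists around the acute-phase proteins; each point is 1 gene, orange lines are list medians and the dashed line is the median of all genes tested. None passed the threshold, and the list medians lie between -0.10 and 0.32.

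The genes most like Orm3 in pattern were taken as those with the smallest root mean square difference of levels centred on the gene's mean, among genes well above background on all 6 livers. Over the 24 arrays they were Cyp2d9, a liver cytochrome P450 (0.64), C730027H18Rik (0.73) and Aqp9, a liver glycerol channel (0.75), and the nearest other acute-phase gene was Apcs (1.22). The KI minus WT difference of Cyp2d9 in liver was -0.35 and that of Aqp9 was -0.15, so this likeness rests on the tissues. Orm3 was well above background on 2 of the 18 arrays outside liver, Cyp2d9 on 11 and C730027H18Rik and Aqp9 on 0, so outside liver the likeness compares mostly background signals. Over the 6 livers alone they were Tle4 (0.14), Rnase4 (0.16) and Gm35287 (0.16), with liver differences of -1.05, -0.82 and -1.21. The nearest of the other 9 acute-phase genes over the livers was Crp (0.30), and Orm1 and Orm2 were at 0.55 and 0.54. This ranking used the liver values that led to the choice of Orm3. A like difference between genotypes therefore follows from the ranking and is not read as a result.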

How the data were processed

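The 10 genes, the gene lists and the rules were chosen with earlier results of these data known. Cy3-labelled cRNA was made from total RNA, per the labels, for 24 one-colour Agilent mouse arrays. The authors extracted the deposited intensities with Agilent Feature Extraction (12.0.3.1 per the file headers). The processed signal is corrected for background but not normalized between arrays. The authors also deposited a score table, which held z-scores within each array for 33912 features and served as an alternative.

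Control spots and outlier spots (121 to 347 per array) were left out, spots of a probe were averaged, and log2 processed signal minus the 75th percentile of the array (a signal of 312.5 to 2519.4) was used. On each array 49.4% to 68.4% of probes were well above background, 573 of the probe values were missing, and no spot was saturated. The number of arrays limits the precision. Probes were named through RefSeq accessions (99.0% of 26732 curated mRNA probes matched), and the brightest probe stood for a gene.

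Each tissue was fitted with limma 3.58.1 in R 4.3.3 (two-sided, Benjamini-Hochberg over all genes, threshold 0.05), keeping a gene where all 3 arrays of a genotype measured it well above background. Tissues were compared in the 12 WT arrays. The fit was tested on simulated data. With 3 mice against 3, an exact permutation test could not pass the threshold. Genes named outside the 10 were those past the threshold or, failing that, the pair of largest liver difference per list, the genes most like Orm3, Terf2ip and albumin. A gene that this rule names is not reported here. Marker genes quoted come from the cell type lists, and Myl7, Nppa and Slc1a5 were named after their values were seen. Replicate numbers are mouse numbers, so they pair arrays across tissues and not genotypes. All livers lay on 1 slide and all muscles on another. Brain and heart lay on 2 slides each, both with both genotypes. Motifs and promoter identity were computed with Python 3.11.15 and Biopython 1.88. Sequences are from RefSeq, GRCm38.p6. The positions printed are those of the RefSeq start regions, and the array's own probe positions, on an older build, were not used.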

Additional observations from a re-analysis of the deposited data

How the results depend on the processing

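The Orm3 difference in liver was -1.0 after normexp background correction with quantile normalization, -1.06 after quantile normalization alone, -1.10 with z-scores and with the deposited scores, and -1.17 to -1.06 with 1 liver left out. No normalization turned the sign of a liver difference among the 10 genes. Between the 14-month-old mice alone, which leaves 1 mouse of each genotype, the liver difference was 0.32 for Saa1, 0.71 for Saa2, 0.70 for Saa3 and -1.47 for Crp. Counts of acute-phase genes and of related genes called between genotypes remained 0 in brain, heart and muscle, and 0 for related genes in liver, under every alternative run, including a fit of all 24 arrays that took the mouse as a replicate block (correlation within a mouse -0.0011 for the genes tested in liver). The count of 10 genes higher in WT liver than in each other tissue was 10 under every alternative, also with mouse as a replicate block and in the KI mice. Among pairs of the other tissues, muscle above brain was lost for Orm2 in 2 of 15 settings (z-scores and the KI mice with the brain of mouse C), and Saa2 below brain and muscle in heart was lost in none. Another probe could not be tried, because each of the 10 genes has 1 probe. Few arrays per group and signals near background limit what could be seen for Orm3, Crp, Apcs and Saa3 outside liver. The cause of these dependences was not tested.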
